A study of Mus musculus with 503 samples.

Results

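The immediate early genes described here are the 10 rows of the count matrix that carry the symbols Fos, Fosb, Jun, Junb, Jund, Egr1, Atf3, Ier2, Nr4a1 and Zfp36, out of 56701 gene rows. They were taken by name and followed across 4 groups of single perivascular cells, which differ in sorted population and treatment. All cells came from the spinal cord of GLAST-CreERT2;R26R-tdTomato;Pdgfrb-eGFP mice, which the sample labels give as female. The study's methods likewise limit crush lesions to female mice, while its reporting summary gives both sexes for sequencing. In these mice EGFP reports the Pdgfrb promoter, and tdTomato marks cells in which the tamoxifen-dependent Cre of the GLAST (Slc1a3) transgene recombined in the adult animal, together with any descendants of those cells. Cells positive for both reporters (tdTomato+EGFP+) and cells positive for EGFP alone (tdTomato-EGFP+) were sorted from uninjured cord or from the lesion segment 3 days after a complete crush (3d_SCI). Each cell was sequenced on its own with Smart-seq3, a plate-based method that reads whole transcripts. Plates 209 and 213 held the uninjured cells, and plates 211 and 215 the injured cells, with both sorted populations on each of the 4 plates. After filtering, 65 and 72 uninjured tdTomato+EGFP+ cells of plates 209 and 213 were kept, and 46 and 60 of the tdTomato-EGFP+ population. Of the injured cells, plates 211 and 215 kept 88 and 34 that were tdTomato+EGFP+ and 58 and 45 that were tdTomato-EGFP+. The labels name no animal, so each group counted as 1 sample and the 2 plates of a group served only as a technical spread. No test between groups was possible, and treatment cannot be told apart from plate or from dissociation run.

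Immediate early genes are transcribed within minutes of a stimulus from factors that are already present in the cell, and their mRNAs decay quickly. Fos and Fosb encode proteins that pair with those of Jun, Junb and Jund to form AP-1, a transcription factor that binds a short DNA motif in the control regions of many genes. Egr1 and Nr4a1 encode a zinc finger factor and an orphan nuclear receptor. Atf3 encodes a stress-induced factor of the ATF/CREB family that is well known from injured nerve, Ier2 a nuclear protein, and Zfp36 (tristetraprolin) a protein that binds AU-rich stretches of mRNA and speeds their decay. The same genes respond to growth factors, to tissue injury and to the dissociation of tissue with enzymes at warm temperature, so a level in sorted cells does not by itself tell when transcription took place. The cells of all 4 groups were released with the same enzymatic dissociation kit, but the crush segment and the uninjured cord were handled separately.

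In the RefSeq annotation of GRCm38.p6, the build that UCSC calls mm10, the members are spread over 7 chromosomes. Fos lies on chromosome 12 from 85473890 to 85477274 and Jun on chromosome 4 from 95049036 to 95052222. Fosb (19302696 to 19310118) and Zfp36 (28376784 to 28379228) share chromosome 7. Junb (84976909 to 84978748), Jund (70697739 to 70700616) and Ier2 (84661331 to 84662852) share chromosome 8. Atf3 lies on chromosome 1 from 191170296 to 191183333 and Nr4a1 on chromosome 15 from 101253902 to 101274795. In the GENCODE vM21 annotation 5 of the 10 genes overlap a gene on the opposite strand, among them Jun with Junos and Junb with Prdx2. Whether the counting used strand is not given in the sources used here, so reads of Jun and Junos cannot be told apart.

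Promoter sequences of RefSeq (GRCm38.p6) were matched for 8 of the 10 members, all but Egr1 and Ier2. The 250 bases before the start site are shown for the members whose levels the results below turn on, Fos, the most abundant, and Fosb, Jun and Atf3, which were among those that differed most between treatments, and for Zfp36, whose window holds a serum response element core. Each is written 5′ to 3′ on the strand of the gene. Capitals mark the 5-base core of the cAMP response element (TGACG or its reverse complement CGTCA) and, in Zfp36, the CArG box, the core that serum response factor recognises.
Fos, chr12:85473640-85473889, + strand: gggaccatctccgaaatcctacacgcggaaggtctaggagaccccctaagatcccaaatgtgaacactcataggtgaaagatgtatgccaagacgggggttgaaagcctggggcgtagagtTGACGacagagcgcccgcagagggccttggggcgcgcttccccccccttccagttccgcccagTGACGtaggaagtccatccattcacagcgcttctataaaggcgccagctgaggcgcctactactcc
Fosb, chr7:19310046-19310295, - strand: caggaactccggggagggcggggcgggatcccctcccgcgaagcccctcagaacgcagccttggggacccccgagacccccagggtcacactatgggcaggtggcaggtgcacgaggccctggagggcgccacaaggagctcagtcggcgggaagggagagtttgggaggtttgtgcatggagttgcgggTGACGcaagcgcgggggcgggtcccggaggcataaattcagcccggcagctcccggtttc
Jun, chr4:95052223-95052472, - strand: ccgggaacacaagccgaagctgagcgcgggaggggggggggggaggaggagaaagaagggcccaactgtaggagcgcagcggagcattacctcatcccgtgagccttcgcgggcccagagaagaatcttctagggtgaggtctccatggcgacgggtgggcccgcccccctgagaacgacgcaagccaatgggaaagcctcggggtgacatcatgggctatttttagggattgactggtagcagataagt
Atf3, chr1:191183334-191183583, - strand: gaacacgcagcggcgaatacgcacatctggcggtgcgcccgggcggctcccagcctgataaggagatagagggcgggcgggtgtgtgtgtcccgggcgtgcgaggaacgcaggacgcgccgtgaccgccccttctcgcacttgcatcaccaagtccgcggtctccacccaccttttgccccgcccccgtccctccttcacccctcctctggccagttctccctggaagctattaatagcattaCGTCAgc
Zfp36, chr7:28379229-28379478, - strand: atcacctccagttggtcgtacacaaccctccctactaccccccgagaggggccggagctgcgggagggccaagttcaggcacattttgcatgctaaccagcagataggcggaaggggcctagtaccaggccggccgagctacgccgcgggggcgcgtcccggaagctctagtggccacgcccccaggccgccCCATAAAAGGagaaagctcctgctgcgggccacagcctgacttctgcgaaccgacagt

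The core TGACG stood in the 250-base window of 5 of 8 members (Fos, Fosb, Junb, Atf3 and Nr4a1), against 17.8% of all 32851 promoters in the table. Fos held 2, the nearer one from -66 to -62 relative to the start site, and Nr4a1 held 4, from -233 to -36. The core in Fosb lay from -60 to -56, that of Junb from -106 to -102 and that of Atf3 from -7 to -3. The CArG box was found only in Zfp36 among the 8 windows, from -58 to -49, against 1.47% of all promoters. The GC box GGGCGG was found in 6 of 8 members and 32.7% of all promoters, and TATAAA in Fos alone, from -33 to -28, against 12.4%. Neither the full cAMP response element (TGACGTCA, 1.55% of all promoters) nor the AP-1 motif TGAGTCA (4.46%) occurred in any of the 8 windows. Both strands were searched for every motif, the core is contained in the full element, and a match says only that these letters are in the window. Egr1, for which no promoter was matched, lies on chromosome 18 from 34861207 to 34864956.

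The mRNAs of the members were also searched for AU-rich motifs. In the 3′ untranslated region of the transcript with the longest coding part, 6 of the 10 held the core TATTTAT at least once, against 27.2% of 19336 genes. Zfp36, whose protein binds this kind of sequence, held 3 copies in 777 bases, and Fos held 2 in 818 bases. Single copies were found in Fosb, Jun, Jund and Atf3, and none in Junb, Egr1, Ier2 and Nr4a1. The shorter ATTTA occurred at a median of 2.88 per kilobase over the 10 members and 1.29 per kilobase over all genes, with 5.49 in Nr4a1, 4.89 in Fos, 0.47 in Fosb and none in Ier2. The median length of these regions was 797.5 bases for the members and 913 for all genes.

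The kept cells held between 25645409 and 38406035 counts per group in total. The exception in depth was the injured tdTomato+EGFP+ set on plate 215, whose 34 cells had a median of 14770 counts against 182124 to 328802.5 in the other 7 sets of plate and population. As a check of the sort, Slc1a3, the gene that encodes GLAST, was at 212 and 207 CPM (counts per 1000000 counts of the summed cells) in the uninjured and injured tdTomato+EGFP+ groups. In the tdTomato-EGFP+ groups its level was 31.5 and 10.7 CPM. Pdgfrb, which drives EGFP, was present in all 4 groups at 1213 to 2491 CPM. Endothelial markers were found as well, although 34 cells with high Pecam1 that exceeded Pdgfrb had been removed. The 5 endothelial markers summed to 3633 and 3867 CPM in the uninjured tdTomato+EGFP+ and tdTomato-EGFP+ groups and to 344 and 1456 CPM in the injured ones, with none of the 5 at 0. The 4 astrocyte markers summed to 3.3 to 267 CPM per group and the 6 microglia and macrophage markers to 16.8 to 72.7 CPM. The share of these cells in the levels below was not tested.

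In the uninjured cord the immediate early genes were abundant in both sorted populations. The 10 members together took up 0.542% of all counts of the tdTomato+EGFP+ and 0.499% of those of the tdTomato-EGFP+ population, that is 5416 and 4989 CPM. Fos was at 1991 CPM on plate 209 and 2265 CPM on plate 213 in tdTomato+EGFP+ cells. The same plates gave 2087 and 2025 CPM for tdTomato-EGFP+ cells, so that the 2 populations overlapped. For Jun the plates gave 782 and 1005 CPM in the tdTomato+EGFP+ and 912 and 719 CPM in the tdTomato-EGFP+ population. Egr1 was at 536 and 774 CPM in the first and 638 and 537 CPM in the second. As the matrix may count reads along whole transcripts, the levels were also divided by exon length to rank the genes. Per kilobase of exon, Fos was highest at 914 CPM per kilobase in uninjured tdTomato+EGFP+ cells, followed by Jun (286), Junb (194), Egr1 (150) and Zfp36 (114.4). Atf3 (91.98), Fosb (56.7), Ier2 (53.7) and Nr4a1 (48.8) came next, and Jund was lowest at 19.4. In uninjured tdTomato-EGFP+ cells the same 6 genes led in the same order, from Fos (869) to Atf3 (100), and Jund was again last (16.7). Ier2, Nr4a1 and Fosb changed places there (38.5, 55.4 and 41.2), so their order is not separable from the spread. If each count is taken as independent, counting error was small beside these differences. The exact 95% Poisson interval was 2136 to 2165 CPM for Fos in uninjured tdTomato+EGFP+ cells. For Atf3, at 15.7 CPM in the injured ones, it was 14.3 to 17.2 CPM. Counts need not be independent if reads were counted. These intervals cover counting error only and not the spread between cells or animals.

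**Figure D1:**
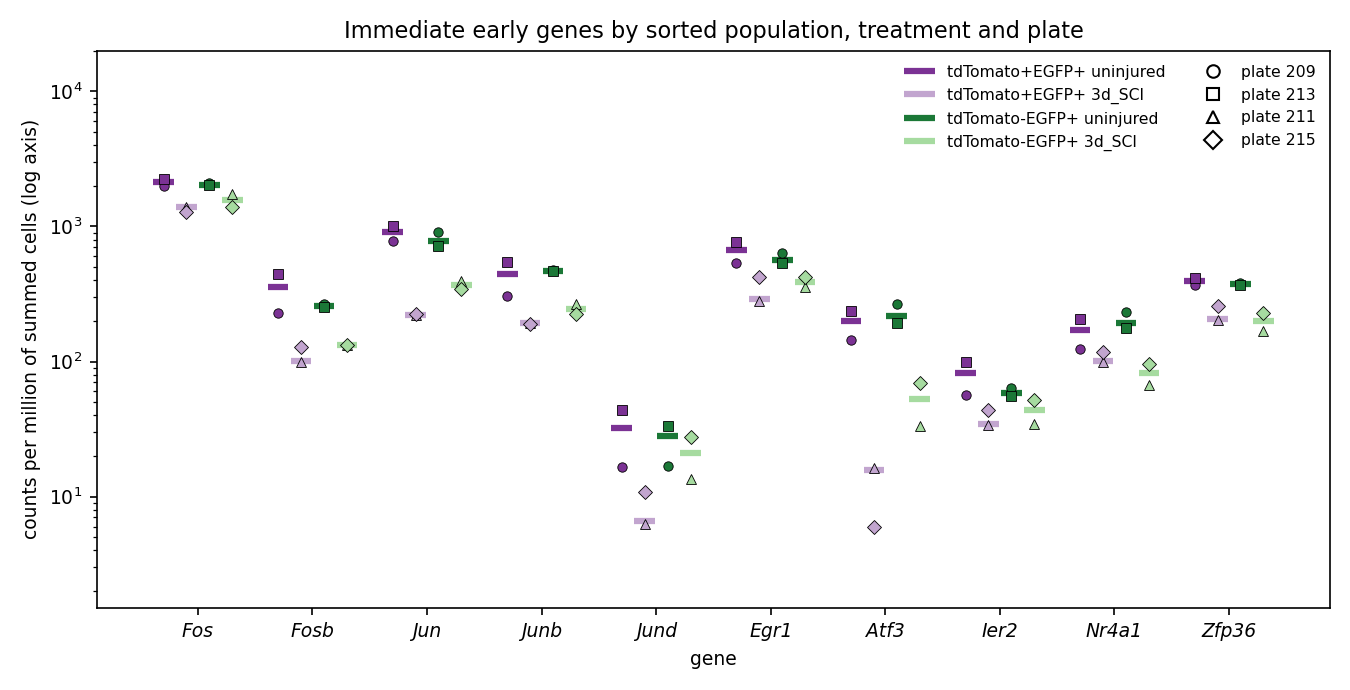
Level of each member in CPM of the summed cells (log axis) for the 4 groups (bars) and their 2 plates each (symbols). Both 3d_SCI plates lie below both uninjured plates for 10 of 10 members in tdTomato+EGFP+ cells and for 9 of 10 in tdTomato-EGFP+ cells, where Jund overlaps. The widest gap is that of Atf3.

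The first comparison asks how the genes differed 3 days after injury in tdTomato+EGFP+ cells. All 10 members were lower at 3 days in the summed cells, and both injured plates lay below both uninjured plates for each of them. Of all 11429 genes at 10 CPM or more in at least 1 group, 49.8% had both injured plates below both uninjured ones. The summed level of the 10 genes was 4552 and 6038 CPM on the uninjured plates and 2546 and 2666 CPM on the injured ones. A gene was called when its log2 difference was at least 1 in size, with 1 CPM added, and had the same sign in every pair of an injured and an uninjured plate. By this rule 7 members were called lower (Fosb, Jun, Junb, Jund, Egr1, Atf3 and Ier2) and none higher, against 34.3% of all genes called lower and 10.8% called higher. The median log2 difference of the 10 was -1.22, from -1.52 to -0.61 over the 4 plate pairs, and that of all genes was -0.59. Markers of cell types moved in the same comparison. All 9 pericyte markers and 4 of 5 endothelial markers were called lower (medians -4.43 and -4.42), and all 6 cycling markers and 4 of 8 perivascular fibroblast markers were called higher (6.10 and 1.55). Their part in the levels of the members was not tested.

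Atf3 differed most. Its level was 144.9 and 237 CPM on the uninjured plates and 16.3 and 6.0 CPM on the injured ones, a log2 difference of -3.58 (plate pairs -5.09 to -3.08). Of the 489 Atf3 counts in the injured group, 43.6% came from 1 cell, so most injured cells were lower still. Jun went from 782 and 1005 CPM uninjured to 219 and 223 CPM at 3 days (log2 difference -2.05, plate pairs -2.19 to -1.81), the narrowest spread among the 7 called members. Fosb had 229 and 444 CPM uninjured and 99.7 and 128.2 CPM at 3 days, a difference of -1.79. Jund, a member of the Jun family that many cells express without stimulation, had 16.5 and 43.7 CPM uninjured and 6.3 and 10.7 CPM at 3 days (-2.14), and the plate pairs ran from -2.61 to -0.58. Junb, Egr1 and Ier2 had differences of -1.21, -1.22 and -1.22. Fos stayed highest of all members at 1395 and 1271 CPM on the injured plates, with a difference of -0.63, close to the -0.59 of the median gene. Nr4a1 (-0.77) and Zfp36 (-0.94) were not called either.

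In tdTomato-EGFP+ cells all 10 members were also lower at 3 days in the summed cells, 9 of them by less and Nr4a1 by more. That order is one of CPM, and the medians relative to all genes, given below, had the reverse order. Both injured plates lay below both uninjured plates for 9 members, with Jund the exception, against 35.3% of 11434 genes. The calling rule gave 3 members lower (Jun, Atf3 and Nr4a1) and none higher, beside 17% and 9.52% of all genes. The median log2 difference was -0.92, from -0.93 to -0.78 over the plate pairs, and that of all genes was -0.20. Atf3 was again the most different, at 266 and 193 CPM on the uninjured plates and at 33.2 and 69.7 CPM on the injured ones (-2.03, plate pairs -2.96 to -1.45). Nr4a1 had 234 and 176 CPM uninjured and 67.4 and 95.5 CPM at 3 days (-1.23). For Jun the plates gave 912 and 719 CPM uninjured and 395 and 343 CPM at 3 days (-1.08). Fosb (-0.95), Junb (-0.94) and Zfp36 (-0.90) fell just short of the limit of 1. Egr1 (-0.55), Ier2 (-0.42) and Fos (-0.39) had smaller differences. Jund had 16.9 and 33.04 CPM uninjured and 13.6 and 27.7 CPM at 3 days, so its plates overlapped. In this population 2 of 9 pericyte and 4 of 5 endothelial markers were called lower (medians -0.28 and -1.28), and all 6 cycling and 6 of 8 perivascular fibroblast markers were called higher (5.52 and 1.90).

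**Figure D2:**
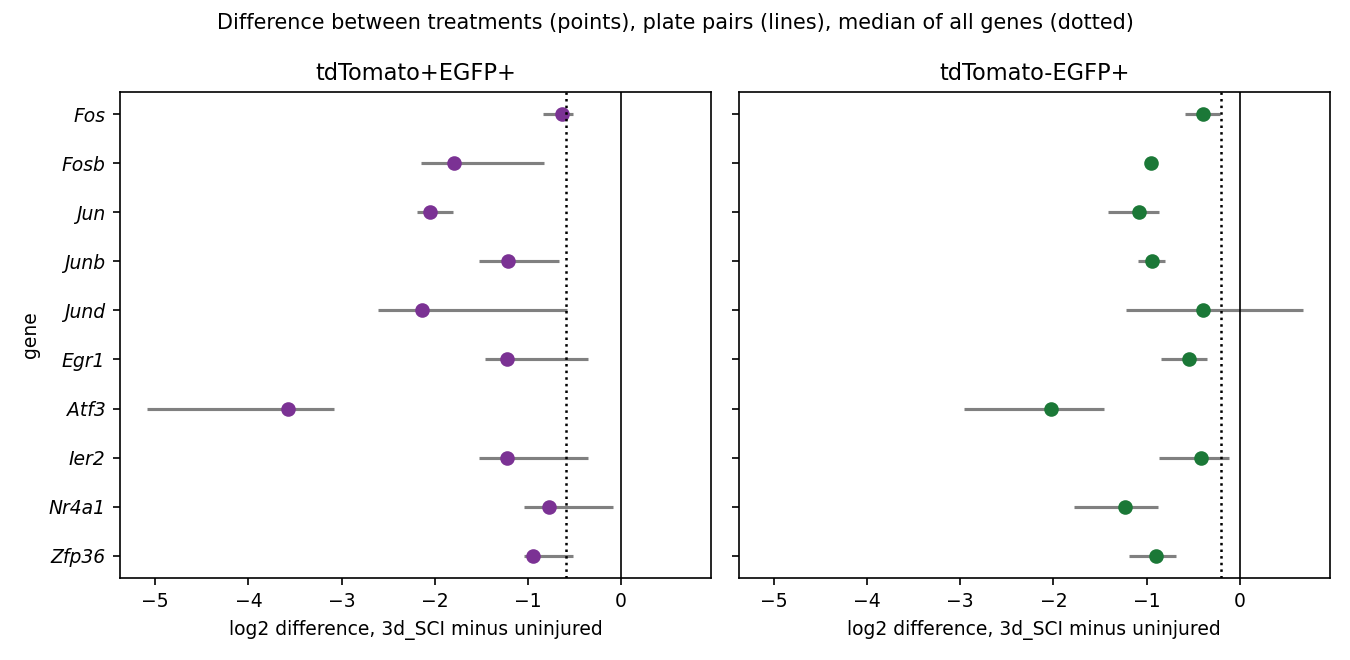
Log2 difference between 3d_SCI and uninjured cells for each member (points) with the range over the 4 plate pairs (grey lines), for tdTomato+EGFP+ (left) and tdTomato-EGFP+ cells (right). Dotted lines give the median of all genes, -0.59 and -0.20. Atf3, Jun, Fosb and Junb lie left of the dotted line over their whole range in both populations, and the line of Jund crosses 0 on the right.

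How these differences read depends on the scaling, because the median gene had a lower CPM at 3 days. With edgeR's TMM factors the median of all genes moved from -0.59 to 0.13 in tdTomato+EGFP+ cells, the median of the members to -0.55 and the number called lower from 7 to 3. Fos then lay above 0 (0.05), and with DESeq2 size factors Fos (0.18) and Nr4a1 (0.04) did. Relative to the median of all genes the median of the members was -0.63 in the main scaling, and -0.68 and -0.69 with TMM and DESeq2 factors. In tdTomato-EGFP+ cells these relative values were -0.71, -0.73 and -0.73. Atf3, Jun, Fosb, Junb, Egr1, Ier2 and Zfp36 were below 0 in both populations under all 11 alternatives fixed at the start that had enough cells. Leaving out the cells of cluster 1, described below, was not among these. There Zfp36 was higher at 3 days in tdTomato+EGFP+ cells, at 398 CPM uninjured and 471 CPM injured. Atf3 lay between -4.84 and -2.79 in tdTomato+EGFP+ cells and between -2.67 and -1.62 in tdTomato-EGFP+ cells. Jun lay between -2.19 and -1.24 in the first and between -1.31 and -0.80 in the second.

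Between the sorted populations the members differed little. In the uninjured cord no member was called, beside 4.31% of 11198 genes called higher and 3.61% called lower in tdTomato+EGFP+ cells. The median difference was 0.15, but the 2 plates disagreed: all 10 members were lower in tdTomato+EGFP+ cells on plate 209 (median -0.22) and all 10 were higher on plate 213 (0.34). At 3 days the median was -0.37, from -0.37 to -0.18 on the plates, beside -0.32 for all genes. With TMM and DESeq2 factors this median lay above 0, at 0.011 and 0.16. At 3 days Jund and Atf3 were called lower in tdTomato+EGFP+ than in tdTomato-EGFP+ cells, where 17.9% of 10631 genes were called lower and 4.31% higher. Jund had 6.3 and 10.7 CPM in the first and 13.6 and 27.7 CPM in the second, and Atf3 at 16.3 and 6.0 CPM against 33.2 and 69.7 CPM. The difference between the injury differences of the 2 populations had a median of -0.74, beside -0.39 for all genes. Over the plate pairs it ran from -0.85 to 0.06. It was called for Jund (-1.75) and Atf3 (-1.55), beside 20.6% of 12081 genes lower and 4.57% higher. The summed Jund value lay outside its plate pairs (-1.68 to -0.96), and Atf3 ran from -3.64 to -0.11. At 3 days the summed Jund difference between populations (-1.54) also lay outside its 2 plates (-1.29 and -0.998). Plate 211 held 29456220 of 31133429 counts of the injured tdTomato+EGFP+ group and 12201222 of 25645409 of the tdTomato-EGFP+ group. The sums thus weight the 2 injured plates differently in the 2 populations. Without plate 215 no member was called in the comparison of populations at 3 days.

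Single cells varied far more than the groups. To compare cells at equal depth, each was thinned to 20000 counts, which left out 10 and 14 uninjured and 22 and 1 injured cells of the tdTomato+EGFP+ and tdTomato-EGFP+ populations. The summed level of the 10 genes then ran from 0 to 15250 CPM over the 63 and 64 uninjured tdTomato+EGFP+ cells of plates 209 and 213, and the median was 5450 CPM. For the 100 injured cells of that population (87 and only 13 on plates 211 and 215) the range was 0 to 9900 CPM and the median 1725 CPM. Uninjured tdTomato-EGFP+ cells ran from 0 to 26050 CPM (median 5400, 92 cells) and injured ones from 50 to 23950 CPM (median 2375, 58 and 44 cells on plates 211 and 215). The medians of the plates did not overlap between treatments, being 4850 and 6750 against 1750 and 1350 CPM for the tdTomato+EGFP+ and 5050 and 5450 against 2300 and 2425 CPM for the tdTomato-EGFP+ population. The single cells did overlap, since the lower quartiles of the uninjured cells, 2450 and 1700 CPM in the tdTomato+EGFP+ and tdTomato-EGFP+ populations, lay below the upper quartiles of the injured ones, 3638 and 4488 CPM.

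Most cells of every group held some of these mRNAs. The median number of members detected per cell at 20000 counts was 8 in uninjured and 6 in injured tdTomato+EGFP+ cells, and 7 under both treatments in the tdTomato-EGFP+ population. At 20000 counts, Fos was detected in 88.04% to 91.3% of the cells of each group, and Jun in 86% to 89.8%. Atf3 was detected in 43.3% of uninjured tdTomato+EGFP+ cells (exact 95% binomial interval 34.5 to 52.4) and in 9.0% of injured ones (4.20 to 16.4). In tdTomato-EGFP+ cells it was detected in 42.4% (32.1 to 53.1) and 31.4% (22.5 to 41.3). These intervals cover the sampling of cells within 1 sample only, and cells are not replicates of a treatment. For Jund the shares were 39.4% uninjured and 12% injured in the tdTomato+EGFP+ and 34.8% and 29.4% in the tdTomato-EGFP+ population. All 10 members were found at once in 19 of the uninjured tdTomato+EGFP+ cells (63 and 64 on plates 209 and 213) and in 0 of 100 injured ones, a count of 0 that allows a share of up to 3.0%. The tdTomato-EGFP+ population had 7 such cells of 92 uninjured and 2 of the injured ones (58 and 44 on plates 211 and 215). These counts depend on depth. At 50000 counts all 10 were found in 22.3% of uninjured and 2.11% of injured tdTomato+EGFP+ cells (2 of 95), and in 20.9% (19 of 91) and 11.3% (11 of 97) of the tdTomato-EGFP+ population. At 20000 counts, 2 or fewer members were found in 7.09% and 9.0% of uninjured and injured tdTomato+EGFP+ cells. The shares in the tdTomato-EGFP+ population were 13.04% and 4.90%. Thinning to 50000 counts gave medians of 5420, 1880, 5180 and 2660 CPM for the summed level in uninjured and injured tdTomato+EGFP+ and uninjured and injured tdTomato-EGFP+ cells.

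**Figure D3:**
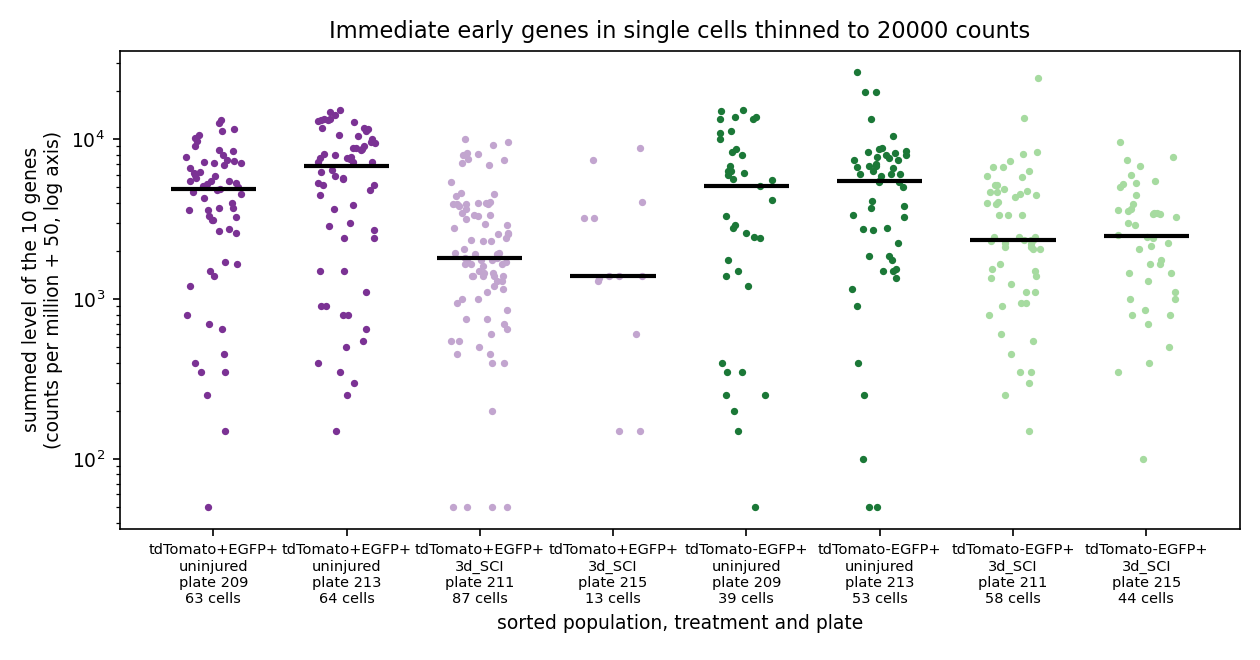
Summed level of the 10 members in each cell thinned to 20000 counts (CPM + 50, log axis), by population, treatment and plate; black bars are medians. The 4 uninjured sets have medians of 4850 to 6750 CPM and the 4 injured sets of 1350 to 2425 CPM, while cells of all sets spread over more than an order of magnitude.

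Within one plate and population the members went up and down together from cell to cell. Over 7 sets with 20 or more thinned cells, Spearman's rho of Fos with Fosb averaged 0.74 (0.66 to 0.82 across sets) and of Fos with Egr1 0.72 (0.64 to 0.84). Fosb with Egr1 reached 0.68, and Fos with Jun 0.60. The mean over all pairs was 0.39. Fos was the member most like the others, with a mean rho of 0.52, followed by Fosb (0.51) and Egr1 (0.50). Atf3 had a mean of 0.32 and Ier2 of 0.26. Jund was lowest at 0.13, with a mean of 0.14 to 0.65 counts per thinned cell in the 4 groups, which leaves little room for ranks. Cells of one set share a plate, a sort and a dissociation, and these values describe the sets without a test. The rho of the summed level with total counts ran from -0.26 to 0.09 across sets, and that with genes detected from -0.31 to 0.01. With the mitochondrial share it was 0.006 to 0.26 in the uninjured sets and -0.28 to -0.07 in the injured sets.

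**Figure D4:**
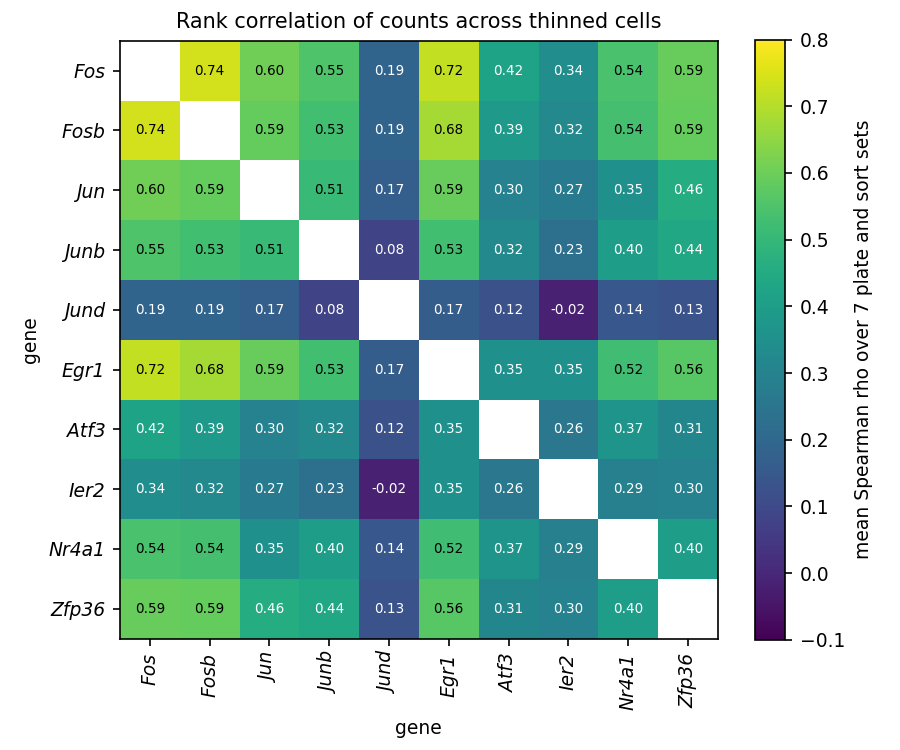
Mean Spearman correlation between the counts of each pair of members across thinned cells, averaged over 7 sets of plate and population. Fos, Fosb and Egr1 form the pairs of highest rho (0.68 to 0.74), and the row of Jund holds the lowest values (-0.02 to 0.19).

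Among 7622 other genes seen in 20% or more of the thinned cells, the one most like the summed members was Btg2, an antiproliferative gene that takes part in mRNA deadenylation, with a mean rho of 0.69 (0.52 to 0.84). Ppp1r15a (GADD34), the stress-induced regulatory subunit of a phosphatase of eIF2, followed at 0.57. Next were Junos (0.51), which overlaps Jun on the other strand, Sertad1 (0.49), Socs3 (0.47), a feedback inhibitor of cytokine signalling, and Dusp1 (0.47), a phosphatase that switches off MAP kinases. Klf4 (0.40), Nfkbiz (0.40), Brd2 (0.39) and Zswim4 (0.38) completed the first 10.

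The cells were grouped into 6 clusters without using the members or the related lists, to see whether the levels followed cell type. A marker counted as raised when it was 0.5 or more above the other cells on the log2 scale and detected in at least 50% of that cluster's cells. Cluster 6 (19 cells) raised 5 of 6 markers of vascular smooth muscle and was called vSMC-like, with Myh11, Lmod1 and Myocd among its leading genes. Cluster 4 (70 cells) raised 8 of 8 markers of perivascular fibroblasts and 4 of 7 of activated fibroblasts, and was called perivascular fibroblast-like. Clusters 2 and 3 each raised all 9 pericyte and all 5 endothelial markers, and genes such as Slc38a5 or Sema3g led them, so they were left unnamed. Cluster 5 (47 cells) raised 7 of 9 pericyte and 4 of 7 activated fibroblast markers, and 46 of its cells were injured tdTomato-EGFP+ cells. Cluster 1 raised all 6 cycling markers, 5 of 7 activated fibroblast and 5 of 8 perivascular fibroblast markers and was left unnamed too; it held all but 22 of the injured tdTomato+EGFP+ cells, 100 of them, and 35 cells with under 20000 counts.

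Pooled over treatments, the summed level of the members ran from 2000 CPM in cluster 1 to 7519 CPM in the vSMC-like cluster 6. Clusters 2, 3, 4 and 5 lay between at 4413, 5361, 5070 and 3358 CPM. These values mix the treatments in unlike shares: all but 2 cells of cluster 6 and all but 6 of cluster 2 were uninjured, and all 47 of cluster 5 were injured. Among uninjured tdTomato+EGFP+ cells clusters 2, 3 and 4 were at 4541, 6034 and 6053 CPM, and 10 cells of cluster 1 were at 505 CPM. The value of these 10 cells rests on few counts, with none of Junb, and the median of the single cells was 909 CPM. Among uninjured tdTomato-EGFP+ cells clusters 2 and 3 were at 4357 and 5113 CPM and the 14 cells of cluster 6 at 8649 CPM. Among injured tdTomato-EGFP+ cells clusters 1, 3, 4 and 5 were at 1933, 3431, 3694 and 3210 CPM. In the vSMC-like cluster, pooled over treatments, Atf3 was at 544 CPM and Nr4a1 at 484 CPM, against 24.6 to 173 CPM and 67.8 to 180 CPM in the other 5 clusters. Ier2 was lowest there, at 22.5 CPM, against 31.9 to 78.3 CPM elsewhere. Cluster 1 had the lowest Fos (1041 CPM), Jun (186 CPM), Jund (6.89 CPM) and Atf3 (24.6 CPM). Most of its cells came from the 2 injured plates, so cluster and treatment cannot be told apart in it.

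**Figure D5:**
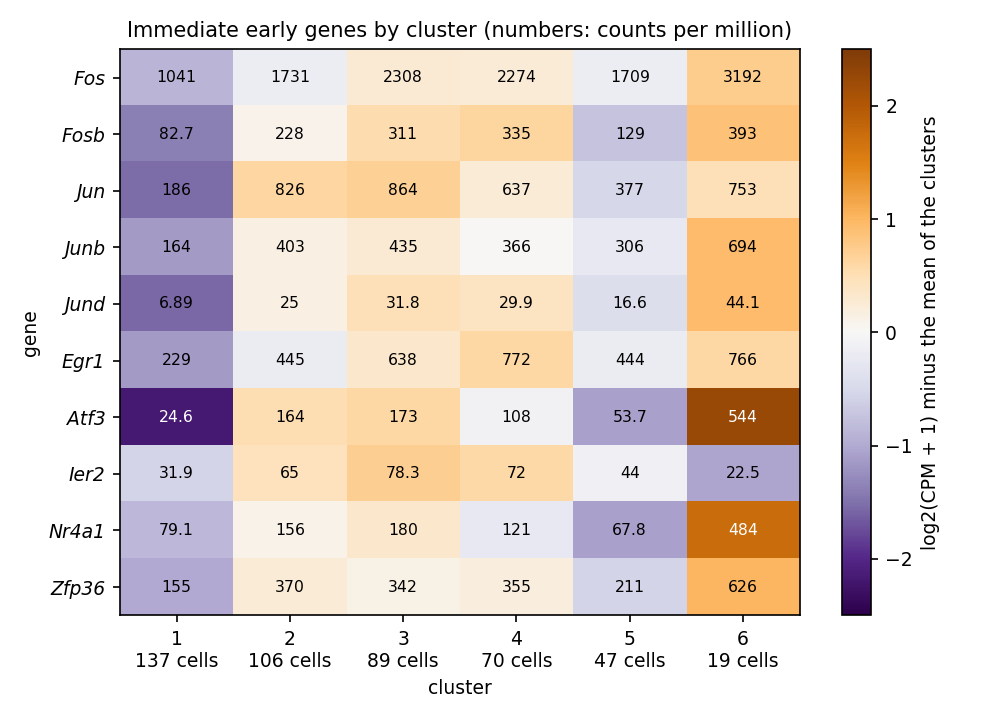
Level of each member in the 6 clusters in CPM (numbers), pooled over treatments and coloured by the difference of log2(CPM + 1) from the mean of the clusters. Cluster 1 is lowest for 8 of the 10 members. The vSMC-like cluster 6 holds the highest Fos, Fosb, Junb, Jund, Atf3, Nr4a1 and Zfp36, and the lowest Ier2.

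In 2 clusters both treatments were represented by 10 or more cells of a population on at least 1 plate each. This allowed a comparison within each of these clusters, although the cells of 1 cluster need not be of like type. In the perivascular fibroblast-like cluster 4, the 26 uninjured and 18 injured tdTomato+EGFP+ cells had summed levels of 6053 and 5131 CPM. Fos was at 2234 CPM in the uninjured and 2864 CPM in the injured cells of this cluster (log2 difference 0.36), Zfp36 at 380 and 485 CPM (0.35), and Nr4a1 at 100.6 and 230 CPM (1.18, plate pairs 0.70 to 1.30). The other 7 members were lower at 3 days, among them Jun at 869 and 391 CPM (-1.15), Fosb at 515 and 203 CPM (-1.34) and Atf3 at 202 and 9.88 CPM (-4.22). The plates bounded Atf3 loosely, from -4.90 to -0.63, because the 10 uninjured cells of plate 209 were at 14.2 CPM. The median of the members within this cluster was -1.01 (plate pairs -1.30 to -0.12) and that of all genes -0.55.

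In cluster 3, 28 uninjured and 14 injured tdTomato-EGFP+ cells had summed levels of 5113 and 3431 CPM, and all 10 members were lower at 3 days. Atf3 was at 235 and 32.5 CPM (-2.81), Egr1 at 684 and 297 CPM (-1.20) and Jun at 787 and 438 CPM (-0.85), whereas Fos was at 2066 and 1894 CPM (-0.13). The median of the members there was -0.94, beside -0.25 for all genes. The cells of cluster 1 were then left out of all groups, a step chosen after the data had been seen. This left 22 injured tdTomato+EGFP+ cells, 17 on plate 211 and 5 on plate 215. Their summed level was 5255 CPM against 5427 CPM in the uninjured cells. The median difference then was -0.66 beside -0.62 for all genes, and 2 members (Jun and Atf3) were called lower in place of 7. Fos was at 2155 CPM in the uninjured and 2997 CPM in the injured cells that remained, Nr4a1 at 172 and 213 CPM and Zfp36 at 398 and 471 CPM. In tdTomato-EGFP+ cells without cluster 1 the median was -0.85 and all 10 members were still lower, with Atf3 and Nr4a1 called.

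Genes around the members in the same circuits were followed with lists, whose counts stand beside the calls over all genes at 3 days: 34.3% lower and 10.8% higher in tdTomato+EGFP+ cells, and 17% lower and 9.52% higher in the tdTomato-EGFP+ population. Of 19 feedback and RNA decay genes at 10 CPM or more, 6 were called lower (31.6%) and 2 higher (10.5%) in tdTomato+EGFP+ cells, close to the shares of all genes, with a list median of -0.88. In the tdTomato-EGFP+ population 5 of 17 were called lower (29.4%) and none higher (median -0.52). Btg2 went from 999 to 140.9 CPM in the tdTomato+EGFP+ (-2.82) and from 964 to 271 CPM in the tdTomato-EGFP+ population (-1.83). In the same order Dusp1 went from 291 to 39.3 CPM (-2.86) and from 273 to 91.3 CPM (-1.57), and Tob1, a relative of Btg2, from 56.1 to 2.34 CPM (-4.09) and from 55.3 to 8.62 CPM (-2.55). Dusp6, a phosphatase of ERK, was called lower in tdTomato-EGFP+ cells (-1.52) and had a difference of -0.27 in the other population. Dusp5 was called higher in tdTomato+EGFP+ cells (2.58), at 1.28 and 12.7 CPM, and had 1.57 in the other population.

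Other immediate early factors went both ways. In tdTomato+EGFP+ cells 5 of 16 were called lower and 3 higher, and in tdTomato-EGFP+ cells 4 of 15 lower and 3 higher, with medians of -0.34 and -0.21. The shares called lower, 31.2% and 26.7%, compare with 34.3% and 17% of all genes, and the shares called higher, 18.8% and 20%, with 10.8% and 9.52%. Klf2, a factor known from endothelium under flow, went from 138.4 to 5.04 CPM in the tdTomato+EGFP+ (-4.53) and from 103.6 to 17.9 CPM in the tdTomato-EGFP+ population (-2.47). Klf4 (-3.41 and -1.16) and Nr4a2 (-2.27 and -2.34) were called lower in both populations. Arc was called lower in tdTomato-EGFP+ cells (-2.32) and had -0.42 in the other population. Myc, which drives growth, was higher at 3 days in both, going from 10.1 to 52.9 CPM (2.29) and from 6.43 to 47.6 CPM (2.71). Egr3 was called higher in tdTomato+EGFP+ cells, at 0.60 and 10.95 CPM (2.90), and had 0.89 in the other population.

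Upstream factors and kinases had 5 of 18 called lower in tdTomato+EGFP+ cells and 1 of 18 in tdTomato-EGFP+ cells, with none higher. These shares, 27.8% and 5.56%, lie below the 34.3% and 17% of all genes, and the list medians, -0.56 and -0.25, were close to those of all genes, -0.59 and -0.20. The kinase gene Rps6ka1 was called in both (-2.78 and -1.35). Mrtfb (-2.20), a coactivator of serum response factor, Crem (-1.94) and Elk4 (-1.51) were called in tdTomato+EGFP+ cells and had -0.68, -0.24 and -0.68 in the other population. Of the AP-1 partners and repressors, Bach1 (-1.36) was called lower in tdTomato+EGFP+ cells, where 34.3% of all genes were. Bach2 (-3.01) was called lower in tdTomato-EGFP+ cells, 1 of 8 at the minimum level beside 17% of all genes.

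Most genes known as targets of AP-1 or serum response factor were higher at 3 days. Of 12 at the minimum level, 11 were called higher in tdTomato+EGFP+ cells and 9 in tdTomato-EGFP+ cells, beside 10.8% and 9.52% of all genes, with none lower and medians of 2.88 and 2.38. Vcl, which encodes the adhesion protein vinculin, was not called in either (-0.72 and 0.05). Timp1, an inhibitor of matrix proteases, went from 6.46 to 849 CPM in the tdTomato+EGFP+ (6.83) and from 5.28 to 398 CPM in the tdTomato-EGFP+ population (5.99). In the same order the chemokine gene Ccl2 went from 11.98 to 996 CPM (6.26) and from 2.90 to 450 CPM (6.85), and the cytokine gene Il6 from 0.16 to 44.1 CPM (5.29) and from 0.15 to 82.2 CPM (6.18). Thbs1 (3.94 and 1.23) and Hmox1 (3.32 and 3.80), which degrades heme, were called higher in both populations.

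Heat shock and chaperone genes, which also respond to handling of cells, had no common direction. In tdTomato+EGFP+ cells 5 of 14 were called higher (35.7%, beside 10.8% of all genes) and 3 lower (21.4%, beside 34.3%), with a list median of 0.09 beside -0.59 for all genes. In the tdTomato-EGFP+ population 2 were called higher (14.3%, beside 9.52%) and 1 lower (7.14%, beside 17%), with -0.02 beside -0.20. The stress-inducible Hspa1a went from 356 to 44.2 CPM in the tdTomato+EGFP+ population (-2.98) and Hspa1b from 20.8 to 3.66 CPM (-2.23), and neither was called in the other population (-0.997 and -0.07). The chaperone genes Hspd1 (2.46) and Hspa8 (2.28) were higher, the latter at 1070 and 5207 CPM. In tdTomato-EGFP+ cells Dnajb1 was called lower (-1.02, against -0.89 in the other population), and Hspe1 (1.23) and Hspa8 (1.04) were called higher, as both were in tdTomato+EGFP+ cells. The lists were chosen with earlier results of these data known, and their counts are descriptions.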

How the data were processed

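Single perivascular cells were sorted and sequenced with Smart-seq3. The authors deposited 1 matrix of raw counts, whole numbers by gene and cell and not normalized. The submitters' processing notes name the build mm10. The aligner, the counter, the annotation, the use of strand and whether reads or molecules were counted are not given in the sources used here. Of its cell columns, 503 belong to the samples used here, and 1465 columns were not used. The 92 spike-in rows (0.0314% of counts) were left out of totals.

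The cell filter asked for at least 200 detected genes, under 20% mitochondrial counts, and ln(1 + counts per 10000) of Gfap and Ptprc up to 1. Cells with Pecam1 over 1 on this scale and above their Pdgfrb were removed as endothelial, a rule set here after the study's description, which gives no limits. The filters kept 468 of 503 cells, with 34 removed as endothelial and 0 for Gfap or Ptprc. No doublet caller was run; 0 pairs of cells had identical counts. The study's upper limit of 1200 genes would leave 33 cells and was an alternative. Total counts per group were 25645409 to 38406035. Where the labels and the series' design text differ on the day after injury, the labels (3 days) were followed.

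Counts were summed per group and plate and divided by the total (CPM, per 1000000 counts). Differences are of log2(CPM + 1), among genes at 10 CPM or more in at least 1 group compared. A gene was called at a difference of 1 or more with the same sign on all plates or plate pairs. No p-value was computed, since each group is 1 sample. Cells were thinned without replacement to 20000 counts. Clusters were made with Seurat 5.3.0 from 2000 variable genes, without the members and listed genes, on 20 principal components at resolution 0.5, regressing genes detected and mitochondrial and ribosomal shares. TMM factors came from edgeR 4.0.16 and size factors from DESeq2 1.42.0, which were used for scaling only. Python 3.11.15 and R 4.3.3 were used.

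The members and lists were chosen with earlier results of these data known. All members are named. From each list at most 4 called genes per comparison, those of largest difference, are named, along with the 10 genes most like the members, and Slc1a3 and Pdgfrb. A result of the list of AP-1 partners and repressors is not reported here. Alternatives covered scaling, pseudocount, averaging, thinning, cell filter, plates, single cells, the minimum level and clustering.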

Additional observations from a re-analysis of the deposited data

Results flagged for a closer look

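Spike-in RNA (ERCC) was counted on 1 of the 4 plates only. On plate 211 it came to 985 CPM, relative to gene counts, and was found in all kept cells, 88 tdTomato+EGFP+ and 58 tdTomato-EGFP+, while none was counted in any kept cell of plates 209, 213 and 215. It drew attention as a signal in rows that no comparison above uses and that is absent from the uninjured plates. Its part in the levels of the immediate early genes was not tested, and those levels were computed without it. The other injured plate, 215, with no spike-in counts, gave 2666 CPM for the 10 members in tdTomato+EGFP+ cells, against 2546 CPM on plate 211.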

How the results depend on the processing

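Over the alternatives fixed at the start, 97 summary values moved by less than the spread between plates, or, for counts of members called, by less than 1.5 times, and 34 moved by more. The cause of these changes was not tested. With TMM factors the median injury difference was -0.55 in tdTomato+EGFP+ and -0.63 in tdTomato-EGFP+ cells, with 3 and 1 members called, the median between populations at 3 days was 0.011, and 1 member was called in the difference of injury differences. With DESeq2 size factors the same medians were -0.41, -0.67 and 0.16, with 2 and 1 members called in the injury comparisons, and the median of the difference of injury differences was -0.17. A pseudocount of 10 CPM left 1 member called between populations at 3 days and 1 in the difference of injury differences. Averaging CPM over cells instead of summing counts, the injury median in tdTomato-EGFP+ cells was -1.04 with 5 members called, and the difference of injury differences had a median of -0.25 with 1 called. Without plate 209, 5 members were called in the difference of injury differences, and without plate 213 its median was -0.16 and 4 members were called for injury in tdTomato+EGFP+ cells. Without plate 211 the medians were -0.18 between populations at 3 days and -0.83 for injury in tdTomato-EGFP+ cells, and without plate 215, 0 members were called between populations at 3 days; no p-value exists for these calls. A limit of 1200 genes left 33 cells, none of them injured tdTomato-EGFP+ cells, so 3 of the 5 comparisons had no value. The other 2 rest on 10 to 13 shallow cells a group, and gave a median of -1.45 with 3 called between uninjured populations, 0.0 with 4 called for injury in tdTomato+EGFP+ cells, and reversed signs for Jun (2.63) and Egr1 (3.05). Without the cells of cluster 1, chosen after seeing the data, the medians were 0.28 between populations at 3 days, -0.66 and -0.85 for injury in tdTomato+EGFP+ and tdTomato-EGFP+ cells, and 0.11 for the difference of injury differences, with 2 members called for injury in tdTomato+EGFP+ cells and 4 in the last. At resolution 0.3 the clusters ran from 3225 to 4808 CPM, and the difference in the cluster that then held most cells of cluster 3 was -0.61. With no regression the highest cluster was at 6049 CPM and that difference was -1.35. Thinning to 50000 counts gave a median of 2660 CPM in injured tdTomato-EGFP+ cells. No paired analysis was possible because the result comes from no test. The shallow cells of plate 215 and the single sample per group set the limits of depth and of precision.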
